A study of Mus musculus with 12 samples.

Results

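The phagocyte NADPH oxidase, the Rac GTPases that switch it on and the voltage-gated proton channel that keeps it running were followed in sorted cells from the brains of old mice. The 7 genes, *Cybb*, *Cyba*, *Ncf1*, *Ncf4*, *Rac1*, *Rac2* and *Hvcn1*, were chosen by name from the 47643 gene identifiers of the count table, and all 7 had counts.

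The study asked which brain cells carry a reporter for p16. Male p16-3MR mice on a C57BL/6 background, aged 113, 115, 116, 116 and 116 weeks, carry a transgene in which the p16 promoter drives a red fluorescent protein (RFP) fused to Renilla luciferase and a truncated viral thymidine kinase. Viable cells, isolated with a cold protease and sorted as DAPI-negative and Draq5-positive, were separated by red fluorescence. The methods call these populations RFP low and RFP high, and the sample titles call them RFPneg and RFPpos. Each of the 5 mice gave 1 sample of each population, and both populations carry the transgene. Samples with the same number in their titles were taken as 1 mouse. RNA was read as 3′ tags, and the counts on genes ran from 177287 to 415834 in the RFPneg samples and from 222560 to 289713 in the RFPpos samples; 2 single-cell samples of the series were not analysed here.

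The gate selected on reporter protein, not on a transcript of the oxidase. *Cdkn2a*, the locus that contains p16, had 2, 0, 0, 2 and 4 counts in the RFPneg samples of mice 1 to 5 and 0 counts in each RFPpos sample. Counts are per gene and do not separate p16 from other transcripts of the locus. A count of 0 at these depths allows up to 3 counts, between 10.4 and 13.5 CPM (counts scaled to 1000000 per library) in single RFPpos samples before TMM scaling, which the other CPM values here include. Summed over mice, *Cdkn2a* had 8 counts in RFPneg and 0 in RFPpos cells, so these values do not show more transcript of the locus in RFPpos cells. The 20 microglia core genes made up 1.47% to 2.27% of the counts in the RFPneg samples and 3.26% to 4.29% in the RFPpos samples, and each of the 20 was detected in both populations.

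The oxidase transfers electrons from NADPH in the cytosol across a membrane to oxygen, which makes superoxide in the phagosome or outside the cell. Its catalytic core is a membrane heterodimer, cytochrome b558, made of gp91phox (*Cybb*) and p22phox (*Cyba*), and it works only after cytosolic subunits such as p47phox (*Ncf1*), p40phox (*Ncf4*) and a Rac protein bound to GTP have joined it from the cytosol. Each electron that crosses leaves charge behind, and the proton channel Hv1 (*Hvcn1*) lets protons follow. Microglia, the resident phagocytes of the brain, use the same complex as neutrophils, monocytes and B cells in the blood.

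RefSeq start sites were found for 3 of the 7 genes, *Cybb*, *Cyba* and *Ncf1*. Their 120 bases before the start are printed 5′ to 3′ from RefSeq (GRCm38.p6). All 3 lie on the minus strand, at chrX:9469325-9469444 for *Cybb*, chr8:122432941-122433060 for *Cyba* and chr5:134229626-134229745 for *Ncf1*. The GENCODE model of *Cybb* runs on beyond this RefSeq start, to position 9487771. Capitals mark the letters GGAA (the core that ETS factors such as PU.1 read), CCAAT and GGGCGG (a GC box), on either strand, so that TTCC, ATTGG and CCGCCC count as matches.
Cybb: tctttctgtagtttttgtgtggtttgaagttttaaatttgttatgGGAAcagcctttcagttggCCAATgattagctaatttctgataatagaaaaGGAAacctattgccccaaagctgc
Cyba: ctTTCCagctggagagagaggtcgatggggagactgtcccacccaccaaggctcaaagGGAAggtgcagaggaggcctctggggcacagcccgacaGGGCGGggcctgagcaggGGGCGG
Ncf1: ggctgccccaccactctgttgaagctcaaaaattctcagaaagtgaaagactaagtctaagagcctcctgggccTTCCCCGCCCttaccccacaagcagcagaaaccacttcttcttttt

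The *Cybb* window holds GGAA at 75 and 24 bases before the start and CCAAT at 56 bases, and no GC box. The *Cyba* window holds GGAA at 62 bases and, on the opposite strand, at 118 bases, with GC boxes at 24 and 6 bases. The *Ncf1* window holds GGAA at 46 bases directly followed by a GC box at 42 bases, both on the opposite strand and printed as 1 run of capitals. Of 32851 RefSeq promoter windows of the same 120 bases, 73.4% hold GGAA, 21.3% hold CCAAT and 26.5% hold GGGCGG. These matches are letters in a window, and binding of any factor was not measured.

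*Cybb*, the catalytic subunit, was the only subunit with a lower value in the RFPpos sample of every mouse. Its counts in mice 1 to 5 were 17, 22, 34, 31 and 23 in RFPneg cells, or 96.4, 109, 82.4, 131 and 75.0 CPM. In RFPpos cells they were 6, 18, 11, 23 and 13, or 29.6, 61.2, 46.1, 87.3 and 55.5 CPM. The populations overlapped only through mouse 4, whose RFPpos value lay above the 2 lowest RFPneg values. The mean was 98.7 ± 22.2 CPM (SD, n = 5) against 55.9 ± 21.2 CPM (SD, n = 5). The log2 fold change of RFPpos over RFPneg was −0.82 (SE 0.302, 95% interval −1.45 to −0.19), and its adjusted p of 0.0591 in edgeR's quasi-likelihood test missed the threshold of 0.05. Over the alternatives tried the adjusted p ran from 3.49e-05 to 0.231, with 0.0302 in edgeR's likelihood ratio test. The lowest value came from scaling to the microglia core genes, where 71.4% of all tested genes were lower. No other alternative gave an adjusted p under 0.05.

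*Cyba*, whose p22phox carries the docking site for p47phox, went up. Its counts were 18, 53, 124, 73 and 82 in RFPneg cells, or 102, 262, 300.4, 308 and 267 CPM. In RFPpos cells they were 89, 133, 72, 88 and 101, or 439, 452, 302, 334 and 431 CPM. The RFPneg sample of mouse 1 stood far below the others, mice 3 and 4 had similar values in both populations, and the ranges touched only where the lowest RFPpos value, of mouse 3, fell below the highest RFPneg value, of mouse 4. *Cyba* passed the test with a log2 fold change of 0.67 (SE 0.234, 95% interval 0.18 to 1.16, edgeR adjusted p = 0.0469). Without mouse 1 the log2 fold change was 0.40 and the call was lost (edgeR adjusted p = 0.204). The call was also lost without mouse 2 (0.128), without mouse 5 (0.121), with DESeq2 (0.144) and with median-of-ratios scaling (0.0552). Scaling to the microglia core genes turned the direction, to −0.42 (edgeR adjusted p = 0.163). The adjusted p over all alternatives ranged from 0.00350 to 0.204.

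*Ncf1* encodes p47phox, the organizer whose phosphorylation opens the way to assembly. RFPneg cells had 16, 18, 28, 22 and 34 counts, or 90.7, 89.1, 67.8, 92.8 and 111 CPM. RFPpos cells had 42, 56, 48, 38 and 48 counts, or 207, 190.3, 201, 144 and 205 CPM. The lowest RFPpos sample, of mouse 4, was above the highest RFPneg sample, of mouse 5, so the populations did not overlap, which held for 16.6% of the 4210 tested genes. RFPpos over RFPneg came to a log2 fold change of 1.07 (SE 0.24, 95% interval 0.57 to 1.57, edgeR adjusted p = 0.00227). *Ncf1* kept an adjusted p under 0.05 without each mouse in turn, from 0.00373 to 0.0246, and with every scaling and tool tried except scaling to the microglia core genes (adjusted p = 0.978), in a range of 1.3e-04 to 0.978.

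*Ncf4*, whose p40phox binds a phosphoinositide of the phagosome membrane, was close to the limit of detection. It had 2, 1, 5, 7 and 5 counts in RFPneg cells and 2, 18, 8, 6 and 5 counts in RFPpos cells. The only sample above the filter of 40.7 CPM was RFPpos of mouse 2, at 61.2 CPM, and 3 of 5 mice were higher in RFPpos. *Ncf4* did not enter the 4210 tested genes. Among the 12270 genes with at least 10 counts its log2 fold change was 0.99 with an interval of −0.27 to 2.26 (edgeR adjusted p = 0.406), and without mouse 2 it was 0.44. That interval holds 0 and runs up to 2.26, so whether *Ncf4* differed cannot be read from counts at this depth.

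**Figure D1:**
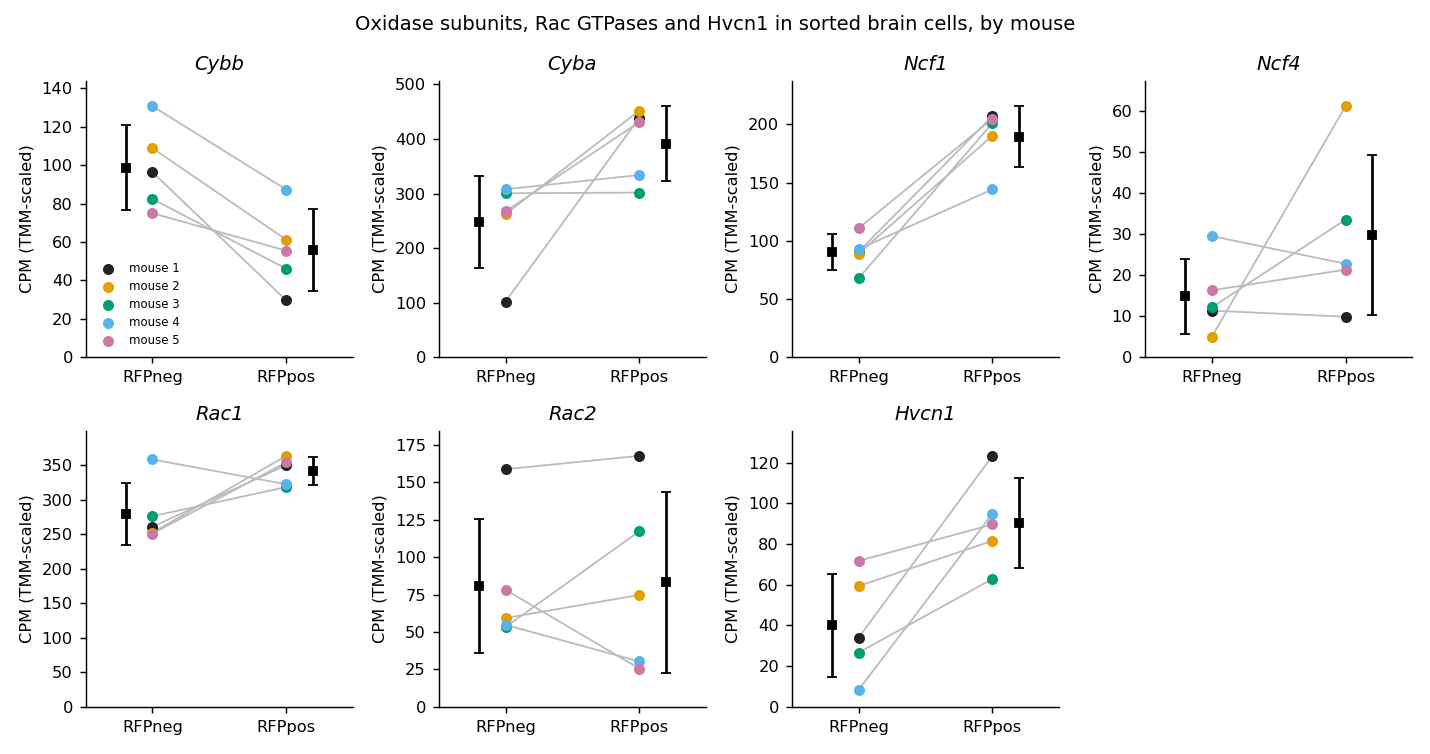
TMM-scaled CPM (y axis, linear from 0) of each gene in RFPneg and RFPpos cells, with 1 colour per mouse, lines joining the samples of a mouse and squares with bars for mean and SD (n = 5). The 5 lines of *Cybb* slope down, those of *Cyba*, *Ncf1* and *Hvcn1* slope up, and the lines of *Rac1*, *Rac2* and *Ncf4* go both ways.

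Rac proteins are small GTPases that, bound to GTP, join the assembled complex. *Rac1*, the widely expressed form, had 46, 51, 114, 85 and 77 counts in RFPneg cells, or 261, 252, 276, 358 and 251 CPM. In RFPpos cells it had 71, 107, 76, 85 and 83 counts, or 350.2, 364, 318, 323 and 354 CPM. It was higher in 4 of 5 mice, and the RFPneg sample of mouse 4 stood above 4 of the RFPpos samples. The log2 fold change of 0.29 (95% interval −0.08 to 0.67, edgeR adjusted p = 0.282) did not pass the test.

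*Rac2*, the form enriched in blood cells, varied more between mice than between populations. RFPneg cells had 28, 12, 22, 13 and 24 counts, or 159, 59.4, 53.3, 54.8 and 78.2 CPM, and RFPpos cells had 34, 22, 28, 8 and 6 counts, or 168, 74.8, 117, 30.4 and 25.6 CPM. Mouse 1 was highest in both populations, while in RFPpos cells mice 4 and 5 fell below every RFPneg sample. Its log2 fold change was −0.04 (95% interval −0.77 to 0.68, edgeR adjusted p = 0.957), and its sign turned in 6 of the 14 alternatives. As a share of the counts of both genes, *Rac2* made up 22.0% ± 9.65 (SD, n = 5) in RFPneg and 18.3% ± 11.2 (SD, n = 5) in RFPpos cells. The log2 ratio of *Rac2* to *Rac1* was lower in RFPpos cells in 4 of 5 mice and higher in mouse 3, with a mean difference of −0.47 (two-sided exact permutation within mice, p = 0.438), which was −0.81 without mouse 3 and −0.08 without mouse 5. With 5 mice that test cannot go below 0.0625.

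*Hvcn1* had 6, 12, 11, 2 and 22 counts in RFPneg cells, or 34.0, 59.4, 26.7, 8.43 and 71.7 CPM. It had 25, 24, 15, 25 and 21 counts in RFPpos cells, or 123, 81.6, 62.9, 94.9 and 89.6 CPM. All 5 mice were higher in RFPpos, by a wide margin in mice 1 and 4 and a narrow one in mice 2 and 5, and only the RFPneg sample of mouse 5 reached into the RFPpos range. The log2 fold change was 1.23 (SE 0.393, 95% interval 0.41 to 2.04, edgeR adjusted p = 0.0284). Just 2 RFPneg samples and all 5 RFPpos samples of *Hvcn1* reached the filter, so it was tested largely through the population where it is high. The call was lost without mouse 1 (edgeR adjusted p = 0.0746), mouse 3 (0.073) or mouse 4 (0.126), with DESeq2 (0.0513) and with limma-voom (0.0663). Scaling to the microglia core genes also ended it, at 0.17 (edgeR adjusted p = 0.705). The adjusted p over all alternatives ranged from 0.00682 to 0.705.

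Of the 7 members, 6 were tested, and *Ncf4* was not. An adjusted p under 0.05 with a higher value in RFPpos was found for 3 of these 6 (*Cyba*, *Ncf1* and *Hvcn1*), beside 10.2% of all 4210 tested genes, and with a lower value for 0 of 6, beside 11.4%. At an unadjusted p under 0.05, 3 were higher and 1 was lower (*Cybb*), beside 649 and 730 of all tested genes. The likelihood ratio test found 3 higher and 1 lower (502 and 583 of all tested genes), DESeq2 1 and 0 (292 and 395), and limma-voom 2 and 0 (478 and 504). At a log2 fold change above 1 as well, *Ncf1* and *Hvcn1* were called higher, beside 5.77% of all tested genes, and none lower, beside 8.81%. The median log2 fold change of the 6 was 0.48, beside −0.03 over all tested genes. Summed over the 7 members, the RFPneg samples of mice 1 to 5 held 754, 836, 819, 982 and 870.4 CPM and the RFPpos samples 1327, 1285, 1081, 1036 and 1182 CPM.

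The members are set beside the 20 microglia core genes here. All 20 microglia core genes passed the test with a higher value, with a median log2 fold change of 1.19. The 5 most abundant were *Ctss*, a lysosomal protease (1.23), *Cx3cr1*, the fractalkine receptor (0.90), *Csf1r*, the receptor for colony stimulating factor (1.24), *C1qc*, a chain of complement C1q (0.86), and *P2ry12*, a purine receptor (1.02). The log2 fold change of *Hvcn1* was exceeded by 7 of the 20 core genes, that of *Ncf1* by 11 and that of *Cyba* by 19. All 20 core genes exceeded *Rac1*, *Rac2* and *Cybb*. In sorted bulk samples, a different number of cells of a type and a different amount of RNA per cell cannot be told apart.

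When the libraries were scaled to the summed counts of the microglia core genes in place of TMM, the median log2 fold change of all tested genes moved to −1.12, and 12 genes were higher (0.285%) and 3007 lower (71.4%) at an adjusted p under 0.05. On that scale *Cybb* had a log2 fold change of −1.92 (SE 0.32, 95% interval −2.58 to −1.26, edgeR adjusted p = 3.49e-05), which was 0.80 below the median of all tested genes (difference −0.80). It stayed between −2.10 and −1.78 without each mouse in turn. *Ncf1* was at −0.01 (95% interval −0.56 to 0.54), *Cyba* at −0.42 (95% interval −0.98 to 0.14) and *Hvcn1* at 0.17 (95% interval −0.68 to 1.02), and none of these 3 passed the test. *Rac1* was at −0.80 (adjusted p = 0.00235) and *Rac2* at −1.15 (adjusted p = 0.00707), lower than the core genes but 0.32 above and 0.03 below (−0.03) the median of all tested genes.

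**Figure D2:**
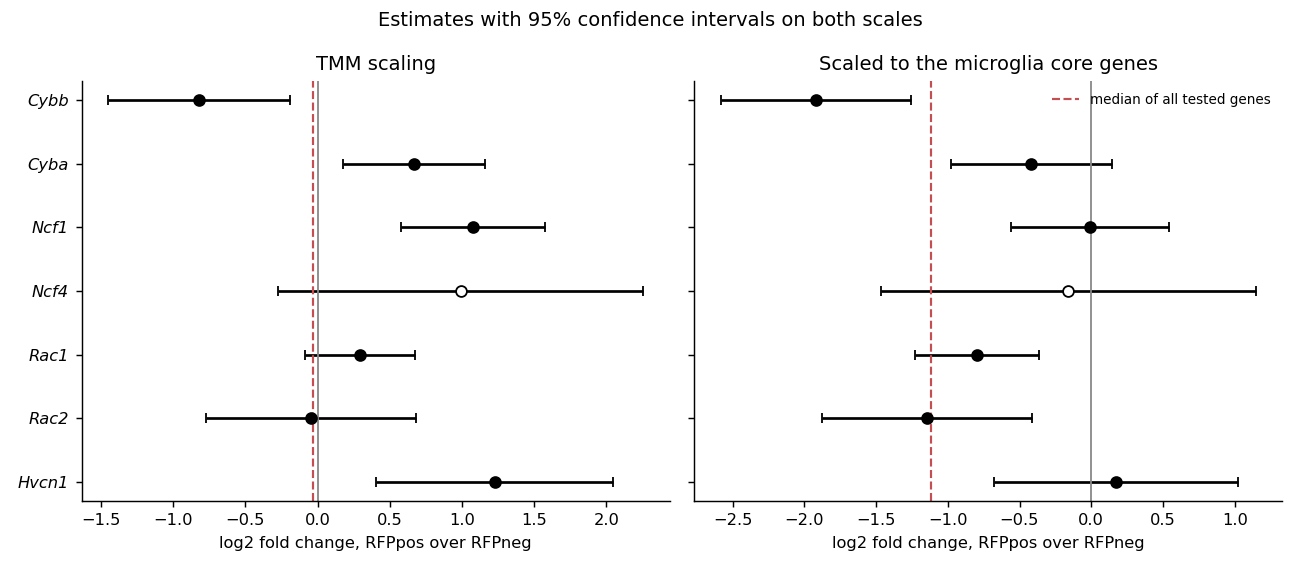
Log2 fold change of RFPpos over RFPneg (x axis) with 95% confidence intervals from edgeR (n = 5 mice), after TMM scaling and after scaling to the 20 microglia core genes; the open symbol, *Ncf4*, comes from the fit on 12270 genes. *Cybb* lies below the dashed median of all tested genes on both scales, at −0.82 and −1.92, and the interval of *Ncf1* is centred near 0 on the right.

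Ratios of counts within a sample do not depend on any scaling. Tags are read at the 3′ end and a gene's yield of tags is its own, so only the change of a ratio is read, not its size. The count of *Cybb* for each count of *Ncf1* was 1.06, 1.22, 1.21, 1.41 and 0.676 in the RFPneg samples of mice 1 to 5 and 0.143, 0.321, 0.229, 0.605 and 0.271 in the RFPpos samples. The populations did not overlap, with means of 1.12 ± 0.275 and 0.314 ± 0.176 (SD, n = 5 each). The count of *Cybb* for each count of *Cyba* was 0.944, 0.415, 0.274, 0.425 and 0.28 in RFPneg and 0.0674, 0.135, 0.153, 0.261 and 0.129 in RFPpos samples, also without overlap, by the narrow margin between mouse 3 of RFPneg and mouse 4 of RFPpos. The ratios with *Cybb* were chosen after the values were seen, and no p is printed for them. These pairs set a lower member against higher ones, and *Ncf1* did not overlap on its own. Non-overlap of the ratios is therefore no added result, and how many other gene pairs separate was not computed.

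**Figure D3:**
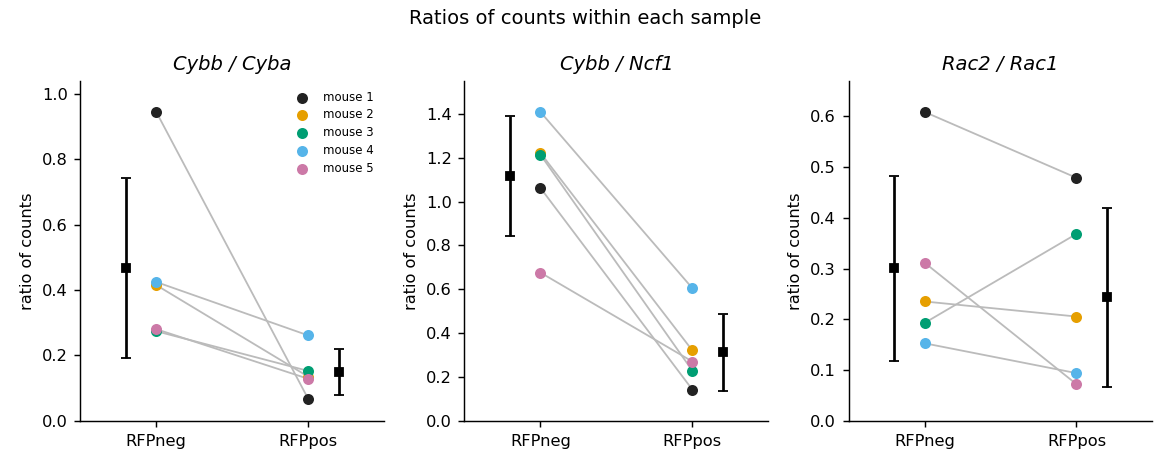
Ratio of the counts of 2 genes in each sample (y axis, linear from 0), with 1 colour per mouse, lines joining the samples of a mouse and squares with bars for mean and SD (n = 5). The ratio of *Cybb* to *Ncf1* lies between 0.676 and 1.41 in RFPneg and between 0.143 and 0.605 in RFPpos samples, while the ratios of *Rac2* to *Rac1* overlap.

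The oxidase is made of genes that blood leukocytes also express, and markers of such cells moved with the sort. Of 14 neutrophil markers 6 were tested and all 6 were lower in RFPpos cells, beside 11.4% of all tested genes. The filter admits genes through 1 population alone: 4 of these 6 (*Camp*, *Ngp*, *Retnlg* and *Mmp8*) reached it in RFPneg samples only, so their direction was in part set by the filter. The summed level of the 14 was 2693, 2839.8, 7395, 4668 and 2376 CPM in the RFPneg samples of mice 1 to 5 and 59.2, 122, 184, 3.79 and 0 CPM in the RFPpos samples. The most abundant, *S100a8*, had 2974 counts in RFPneg and 29 in RFPpos cells, and *Ltf*, *Mmp9*, *Cxcr2*, *Ly6g*, *Mpo* and *Stfa2l1* were at 0 in all RFPpos samples.

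Monocyte markers were lower for both of the 2 tested genes of 9 (beside 11.4% of all tested genes), *Fn1* (−4.37) and *Ccr2* (−3.22, at the filter in RFPneg samples only). The sums of the list were 448, 658, 657, 683 and 449.9 CPM in RFPneg against 9.86, 37.4, 50.3, 56.9 and 12.8 CPM in RFPpos samples. *Fn1* was the most abundant, with a mean of 300 of the 579 CPM of the list in RFPneg samples. Which cells its counts came from was not tested. *Ly6c2*, *Chil3*, *Ace* and *Treml4* were at 0 in RFPpos cells. Of 10 B cell markers 3 were tested and 2 were lower (beside 11.4% of all tested genes), *Igkc* (−7.18) and *Ebf1* (−5.94), both at the filter in RFPneg samples only. *Ighm*, the most abundant over both populations, was at −0.06. The B cell sums were 759.8, 668, 695, 877 and 1007 CPM against 227, 197, 205, 277 and 269 CPM. That fall lies mostly in *Igkc* (416 counts against 2) and *Ebf1* (297 against 4), while *Cd79b* had 6 against 6 and *Ighd* 24 against 16, and *Cd79a* and *Pax5* were at 0 in RFPpos cells. None of the 10 T and NK cell markers was tested, and their sums were 153, 44.5, 150.2, 164 and 143 CPM against 0, 17.0, 0, 11.4 and 0 CPM, with *Cd3e* and 7 others at 0 in RFPpos cells, among them *Trbc2*, the most abundant. Border macrophage markers, of which *Mrc1* was the most abundant and the only 1 of 7 tested (log2 fold change 0.57, edgeR adjusted p = 0.253), summed to 193, 178, 169.6, 198 and 212 CPM against 168, 306, 155, 137 and 192 CPM. The other 6 went both ways in RFPneg against RFPpos counts, with *F13a1* at 57 against 20, *Ms4a7* at 42 against 21, *Lyve1* at 16 against 14, *Cbr2* at 7 against 7, *Pf4* at 49 against 57 and *Cd163* at 9 against 24, and none passed in the fit on 12270 genes. The part of these cells in the values of *Cybb* and the other members was not tested.

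Cells outside the blood lineage moved too. All 6 tested endothelial markers of 10 were lower in RFPpos cells (beside 11.4% of all tested genes), 2 of them (*Slco1a4* and *Esam*) at the filter in RFPneg samples only, with sums of 1367, 4314, 4511, 6241 and 3481 CPM against 128, 132.5, 168, 239 and 179 CPM, *Flt1* the most abundant and *Emcn* at 0 in RFPpos cells. All 6 tested oligodendrocyte markers of 8 were lower, 1 of them (*Cldn11*) at the filter in RFPneg samples only, with sums of 3192, 1781, 1199, 1143 and 1405 CPM against 404, 167, 281, 171 and 226 CPM, *Mbp* the most abundant and none at 0. Both tested mural markers of 8, *Rgs5* (at the filter in RFPneg samples only) and *Vtn*, were lower, with sums of 516, 505, 237, 544 and 362 CPM against 14.8, 54.4, 71.2, 106 and 76.8 CPM. *Vtn* was the most abundant over both populations and *Rgs5* in RFPneg cells, and *Kcnj8*, *Abcc9*, *Tagln* and *Myh11* were at 0 in RFPpos cells.

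Of 8 neuron markers 3 were tested and 1 was lower (beside 11.4% of all tested genes), *Stmn2* (−3.70), at the filter in RFPneg samples only. Their sums were 232, 351, 412, 510.2 and 391 CPM against 212, 68.0, 163, 45.5 and 200.5 CPM, with *Meg3* the most abundant. Of 7 tested astrocyte markers 1 was lower (beside 11.4% of all tested genes), *Slc1a2* (−0.76), also the most abundant over both populations. The astrocyte sums were 3680.1, 5041, 4623, 3643 and 3951 CPM against 1001, 2722, 5053, 4959 and 4625 CPM. None of the neuron and astrocyte markers was at 0 in either population. The part of these cells in the members' values was not tested.

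**Figure D4:**
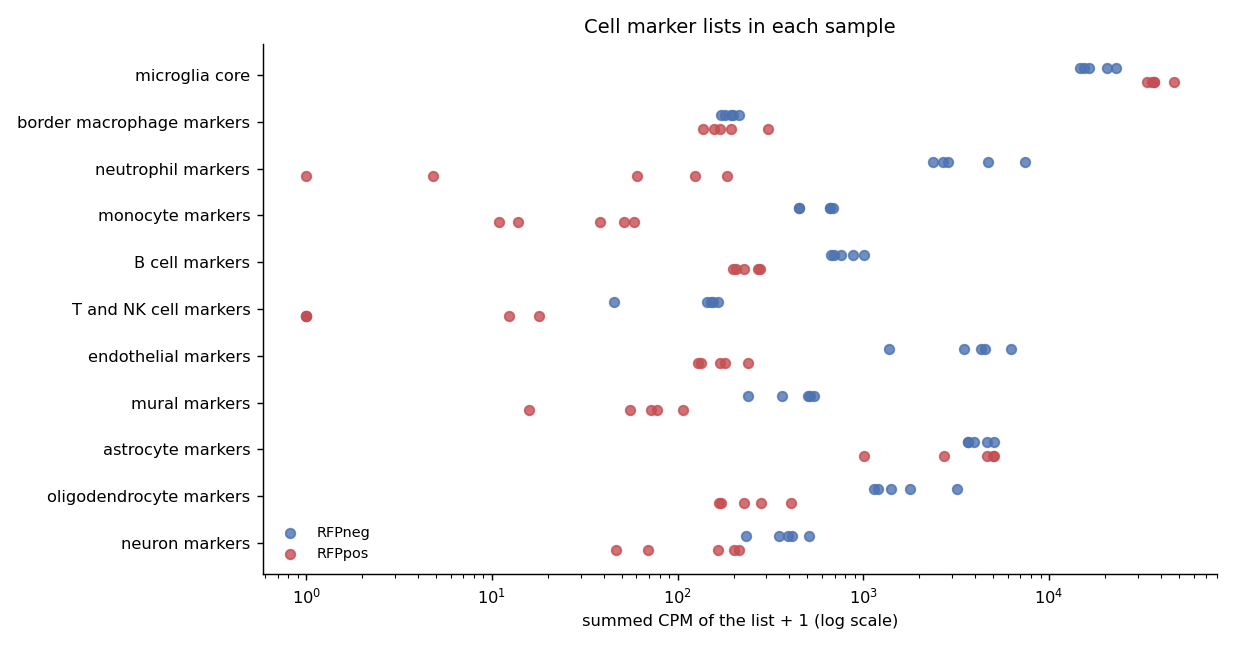
Summed CPM of each cell marker list plus 1 (x axis, log scale) in the 5 RFPneg (blue) and 5 RFPpos (red) samples. Neutrophil markers lie between 2376 and 7395 in RFPneg and between 0 and 184 in RFPpos samples, while microglia core genes are higher in RFPpos and border macrophage markers overlap.

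Beyond the subunits, 24 genes known to assemble, activate or restrain the oxidase were examined, and 18 were tested. Of these, 7 were higher and 1 was lower in RFPpos cells, beside 10.2% and 11.4% of all tested genes, with a median log2 fold change of 0.54, beside −0.03. DESeq2 found 5 higher and 1 lower, and limma-voom and the likelihood ratio test each found 7 and 1. *Vav1*, an exchange factor that loads Rac with GTP, had a log2 fold change of 1.54 (SE 0.369, edgeR adjusted p = 0.00402), *Dock2*, another such factor of blood cells, 1.13 (SE 0.273, 0.00443), and *Prex1*, which responds to phosphoinositides, 1.03 (SE 0.225, 0.00185). *Pik3cg*, the lipid kinase that acts behind chemokine receptors, was at 1.28 (SE 0.276, 0.00172), and *Prkcd*, a kinase that phosphorylates p47phox, at 0.75 (SE 0.191, 0.00669). *Pik3cd* and *Arhgap25*, a GTPase activating protein for Rac, were also higher, and *Pak1*, a kinase bound by active Rac, was lower at −1.46 (SE 0.467, 0.0294); these 3 were named after their values were seen. *Vav1* reached the filter in 1 RFPneg sample only. *Vav3*, another exchange factor, had 24 counts in RFPneg and 0 in RFPpos cells and was not among the tested genes; in the fit on 12270 genes it was lower (−4.98, edgeR adjusted p = 0.0127). *Tiam1*, also an exchange factor for Rac, did not pass (−0.66, adjusted p = 0.228); both were named after their values were seen. *Cybc1*, the chaperone needed for a stable cytochrome b558, had 81 and 116 counts and did not pass (0.61, adjusted p = 0.162). On the scale of the microglia core genes edgeR found 0 of the 18 higher, also 0 at an unadjusted p under 0.05, and 7 lower, with a median of −0.54, beside 0.285% higher, 71.4% lower and a median of −1.12 for all tested genes.

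Other NADPH oxidases were at the limit of detection. Of 9 genes of the Nox and Duox family and their partners, 5 had no count in any sample (*Nox1*, *Nox3*, *Noxa1*, *Duox1* and *Duoxa2*), and none was tested. *Nox4* had 3 counts, all in 1 RFPneg sample, and the most abundant, *Duoxa1*, had 5 counts in RFPneg and 8 in RFPpos cells. The sums of the list ran from 0 to 17.0 CPM in RFPneg and from 4.19 to 12.8 CPM in RFPpos samples.

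Enzymes that remove superoxide and peroxide were lower or did not pass. Of 20 genes 11 were tested, and edgeR found 0 higher, also 0 at an unadjusted p under 0.05 and with the 3 other tools, and 3 lower (beside 10.2% and 11.4% of all tested genes), with a median log2 fold change of −0.41. At an unadjusted p under 0.05 edgeR found 5 of the 11 lower, beside 730 of all tested genes. On the core scale 10 of 11 were lower with a median of −1.52, beside 71.4% lower and a median of −1.12 for all tested genes. *Txn1*, thioredoxin, fell by 1.38 on the log2 scale (SE 0.216, edgeR adjusted p = 6.19e-05), with 465 counts in RFPneg and 159 in RFPpos cells. *Prdx2*, a peroxiredoxin, was at −0.92 (SE 0.3, adjusted p = 0.0308), and the cytosolic superoxide dismutase *Sod1* at −0.79 (SE 0.227, adjusted p = 0.0154). All 3 were lower in all 5 mice. DESeq2 found 1 of the 11 lower, beside 395 of all tested genes. In the fit on 12270 genes edgeR found 2 of 19 lower, with *Prdx2* at an adjusted p of 0.0805. In that fit 445 of the 4210 tested genes were lower. The enzymes that supply NADPH did not pass in either direction in edgeR, DESeq2 or limma-voom; on the core scale 2 of the 4 tested were lower in edgeR (*Tkt* and *Taldo1*), beside 71.4% of all tested genes. Of 9 genes of the pentose phosphate pathway and related steps 4 were tested, and the log2 fold changes ran from −0.62 to 0.60. At an unadjusted p under 0.05 in edgeR 1 was lower (*Taldo1*, named after its value was seen), beside 730 of all tested genes.

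Several transcription factors of the myeloid lineage were higher. Of 10 genes 9 were tested and 5 were higher (beside 10.2% of all tested genes), with a median of 0.86 (beside −0.03), and all 9 had a value above 0. DESeq2 found 3 of the 9 higher, limma-voom 5 and the likelihood ratio test 6. *Cebpa* was at 1.59 (SE 0.283, edgeR adjusted p = 2.72e-04), *Mef2c* at 1.12 (SE 0.17, 4.96e-05), *Runx1* at 1.01 (SE 0.287, 0.0139) and *Irf8* at 0.93 (SE 0.188, 9.54e-04). *Spi1*, which encodes PU.1, was higher at 0.86 (SE 0.271, adjusted p = 0.0271) and higher in 4 of 5 mice; it was named after its value was seen. On the core scale edgeR found 0 of the 9 higher, also 0 at an unadjusted p under 0.05, and 3 lower, with a median of −0.24, beside 0.285% higher, 71.4% lower and a median of −1.12 for all tested genes.

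**Figure D5:**
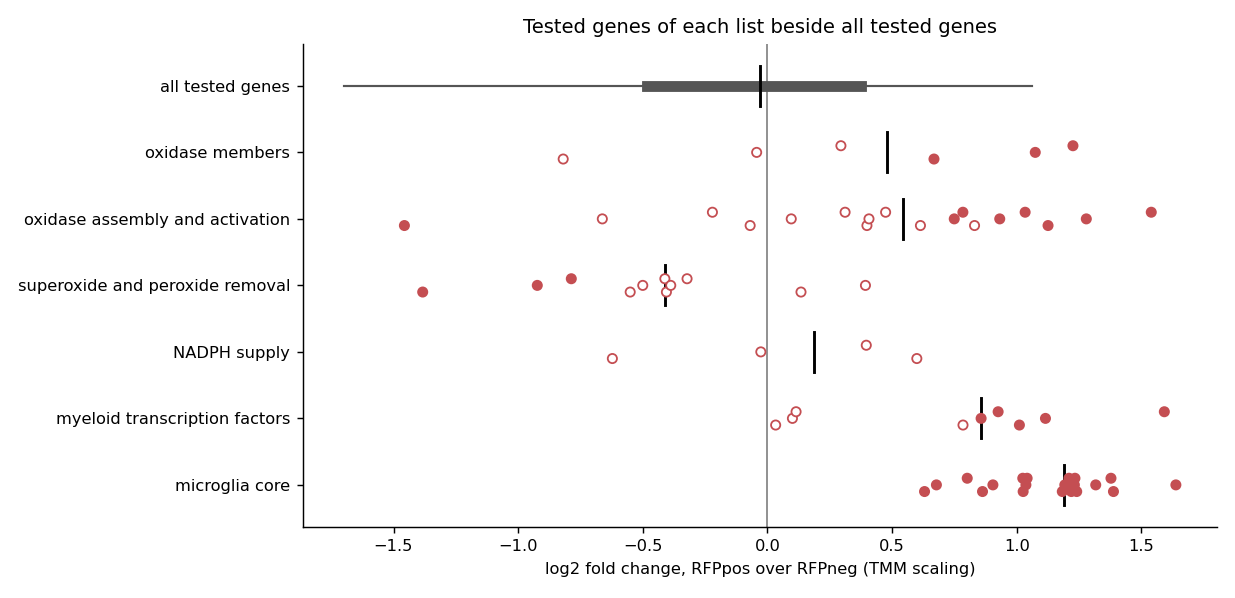
Log2 fold change of RFPpos over RFPneg after TMM scaling (x axis) of the tested genes of 6 lists, filled where the adjusted p was under 0.05, with black bars for the medians; the grey bar of all 4210 tested genes spans the middle 50 and the thin line the middle 90 percent. Medians of these 6 lists run from −0.41 for superoxide and peroxide removal to 1.19 for the microglia core.

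The genes whose log2 CPM most resembled each member over the 10 samples, by Pearson correlation, differed between the members. For *Ncf1* they were *Tlr7* (r = 0.98), *Slc16a6* (0.97) and *B4galt1* (0.97), and for *Hvcn1* they were *Arhgap27* (0.93), *1700017B05Rik* (0.93) and *Kctd12* (0.93). For *Cybb* they were *Sypl* (0.96), *Inpp5f* (0.93) and *Amd1* (0.93), all 3 with a log2 fold change below 0. For *Cyba* they were *Rab8b* (0.95), *Rbm26* (0.93) and *Lpp* (0.92), for *Rac1* they were *Kif3b* (0.91), *Dnajb14* (0.91) and *Ncor1* (0.91), and for *Rac2* they were *Rpl7l1* (0.86), *Sh2b3* (0.86) and *Ube2d2a* (0.85). These are the highest values among all tested genes over n = 10 samples that share mice and populations, and they are a description.

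Some rows may miss reads that lie on 2 genes. *Ncf1* shares 408 exon bases with *Gtf2ird2* on the opposite strand, *Rac1* shares 2309 with *Daglb*, and *Hvcn1* shares 1574 with *Tctn1*. The count table sets ambiguous reads apart, at 0.295% to 0.436% of a sample, so reads on shared bases may be missing from these rows. Whether counting used the strand of a read is not given in the sources used here, so the counts of *Ncf1*, *Rac1* and *Hvcn1* are uncertain to that extent. The rows of the opposite genes held 46, 313 and 8 counts over the 10 samples.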

How the data were processed

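Values are read counts per gene of 10 sorted samples, which the authors made with the Lexogen QuantSeq FWD UMI pipeline (2.3.1, BlueBee 1.10.18) and deposited without normalization; the submitters' processing notes name mm10. Counts on no gene, 32.1% to 48.6% of a sample, were left out. Genes were tested with edgeR 4.0.16 in R 4.3.3 (TMM scaling, quasi-likelihood test, mouse as a block, Benjamini-Hochberg adjustment) where at least 5 samples reached 10 counts in the median library (40.7 CPM). Alternatives used DESeq2 1.42.0, limma 3.58.1, other scalings and filters, no block, and each mouse left out. The scripts were tested on simulated data. Symbols and positions came from GENCODE on GRCm38.

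The methods state that both populations came from the same mice. The pairs were taken from the numbers in the sample titles. Ages were equal within each pair, but mice 3, 4 and 5 share the age of 116 weeks. Deviations of paired samples from the population means correlated at 0.22, −0.04, 0.14, −0.01 and 0.02 within mice 1 to 5.

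The members and gene lists were chosen with earlier results of these data known. Besides the members, the 5 most abundant core genes and the exceptions below, named genes are up to 6 of each list with the smallest p among those with adjusted p under 0.05 and 1 direction in 5 mice, and the 3 genes most like each member. Marker lists also give their most abundant gene (mean CPM over all 10 samples) and those at 0. *Cybc1*, *Cd79b*, *Ighd*, *Tkt*, *Cdkn2a*, the genes of other NADPH oxidases and the border macrophage markers besides *Mrc1* were named outside these rules. So were the opposite-strand genes and, except *Pak1*, those marked as named after their values were seen. Apart from the border macrophage list, only the leading marker genes are printed. Some genes and 1 gene list are not reported here.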

Additional observations from a re-analysis of the deposited data

Results flagged for a closer look

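Of 142 sets of 5 values examined, 20 had 1 sample whose gap to the nearest exceeded 0.71 of the whole range, where chance gives about 1 in 20, or 7.1. Among the subunits and GTPases these were *Cyba* in RFPneg cells of mouse 1 (102 CPM, the others from 262 to 308), *Ncf1* in RFPpos cells of mouse 4 (144 CPM, the others from 190.3 to 207), *Rac1* in RFPneg cells of mouse 4 (358 CPM, the others from 251 to 276) and *Rac2* in RFPneg cells of mouse 1 (159 CPM, the others from 53.3 to 78.2). The ratio of *Cybb* to *Cyba* in RFPneg cells of mouse 1 was 0.944, with the others from 0.274 to 0.425.

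In RFPpos cells of mouse 1 the summed microglia core genes reached 47103 CPM, against 33796 to 36893 in the others, with *P2ry12* at 3797 CPM, *Mef2c* at 981 CPM and *Mobp* at 59.2 CPM also apart. In RFPneg cells of the same mouse *Cldn11* (539 CPM), *Mag* (306 CPM) and *Cnp* (454 CPM) were above the others. In RFPneg cells *Prdx2* of mouse 4 was at 186 CPM and *Camp* of mouse 3 at 577 CPM, and the T and NK cell markers of mouse 2 were low at 44.5 CPM.

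In RFPpos cells 5 values on few counts stood above the others. These were *Camp* and *Ngp* of mouse 3 (each 20.9 CPM), *Mmp8* of mouse 2 (20.4 CPM), *Stmn2* of mouse 3 (37.7 CPM) and *Olig1* of mouse 5 (42.7 CPM).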

How the results depend on the processing

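Over 195 values from alternatives, 161 stayed the same: fold changes and the *Rac2* ratio kept direction and side of the threshold, numbers of called genes stayed within 1.5-fold and the summed CPM within 1 SD. Scaling to the microglia core genes, which sets their sum equal in all samples, moved the most. It left 3 genes called higher and 2435 lower in RFPpos, and gave log2 fold changes of −1.92 for *Cybb*, −0.42 for *Cyba*, −0.0087 for *Ncf1*, −0.16 for *Ncf4*, −0.80 for *Rac1*, −1.15 for *Rac2* and 0.17 for *Hvcn1*. Among genes with at least 10 counts 820 were called lower and with no filter 743, where more genes were tested, and without a fold threshold 431 were called higher.

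Other tools and scalings changed some calls with little change in value, and the cause was not tested. *Cybb* passed in the likelihood ratio test (−0.81). The calls of *Cyba* (0.67) and *Hvcn1* (1.28) were lost with DESeq2, that of *Hvcn1* with limma-voom (0.99) and that of *Cyba* with median-of-ratios scaling (0.64). *Rac2* turned positive with limma-voom (0.11), among genes with at least 10 counts (0.032) and with no filter (0.025). Without the pairing by mouse (no replicate block) *Rac2* was at 0.063, no other direction and no call of a member changed, and 236 genes were called higher and 370 lower.

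Without each mouse in turn, the fewer samples gave log2 fold changes of 0.40 to 0.85 for *Cyba*, −0.40 to 0.27 for *Rac2* and 0.89 to 1.52 for *Hvcn1*. On the core scale they were −0.71 to −0.21 for *Cyba* (adjusted p = 0.0146 without mouse 1), −0.12 to 0.13 for *Ncf1*, −0.64 to 0.27 for *Ncf4* and −0.14 to 0.46 for *Hvcn1*. The difference in summed CPM of the members was 329.6 (RFPpos minus RFPneg) and ran from 269 to 399.

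Depth limits these values. Single members rest on 1 to 133 counts in a sample. After TMM scaling the intervals of *Ncf4*, *Rac1* and *Rac2* hold changes in either direction, so neither a difference nor its absence was shown for them. Only 5 mice of 1 sex and similar age were sampled, and protein, assembly and superoxide were not measured. RFPneg cells are a mixture whose makeup differed between mice. Markers also differed between the RFPpos samples, with astrocyte sums from 1001 to 5053 CPM. The share of each cell type in a member's counts was not tested.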
